A study of Mus musculus with 20 samples.

Results

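The genes described here make, desaturate and lengthen long-chain fatty acids: the stearoyl-CoA desaturase genes Scd1, Scd2 and Scd4, the synthesis genes Acly, Acaca and Fasn, the transcription factor gene Srebf1, and the elongase genes Elovl1, Elovl5 and Elovl6. They were chosen by name, with earlier results on these hearts in view, and all 10 were among the 11856 genes of the deposited expression table. Their levels were measured by RNA-seq of the input RNA of 10 mouse hearts, and their N6-methyladenosine (m6A) by sequencing of RNA from the same hearts after pull-down with an antibody to m6A, which makes 20 libraries. The groups were 5 db/db hearts and 5 db/+ hearts, all of C57BL/6 mice. The db allele disrupts the leptin receptor gene. Homozygous db/db mice become obese and diabetic, and db/+ mice carry 1 copy of the allele and are the usual lean controls. In the labels, db/+ animals have the genotype entry wild type, but their titles name db/+ and were used. Ages and sexes were not used here. Hearts are numbered 1 to 5 within a genotype, as in the titles.

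Fatty acid synthesis starts in the cytosol, where ATP citrate lyase (Acly) splits citrate into acetyl-CoA, acetyl-CoA carboxylase (Acaca) makes malonyl-CoA from it, and fatty acid synthase (Fasn) joins these units into palmitate. Enzymes of the ELOVL family then lengthen the chain in the endoplasmic reticulum, and stearoyl-CoA desaturases place the first double bond in it. SREBP1 (Srebf1) switches many of these genes on. Liver and fat make most fatty acids, while heart muscle mainly takes them up and burns them, and the SCD4 isoform is known mainly from the mouse heart.

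Among the 10 genes, Scd4 stood apart. It averaged 8.97 ± 1.75 FPKM (a level scaled to transcript length and library size) in db/db hearts and 2.47 ± 0.90 FPKM in db/+ hearts (SD, n = 5 each), a ratio of 3.64, and it was the one gene of the 10 whose values did not overlap between genotypes. Its nearest relatives Scd1 and Scd2 overlapped between genotypes. Fasn, Acaca, Acly and Elovl6 had their highest values in db/+ hearts 3 and 5, the same hearts that had the most adipocyte transcripts.

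The main comparison was a limma fit on log2(FPKM + 1), a scale that understates changes of low genes, over the 10344 genes whose mean reached 1 FPKM. Calls were made at an adjusted p below 0.05 (Benjamini-Hochberg over all genes tested). Of the 10 genes, 9 entered the fit and Elovl6, with a mean of 0.671 FPKM, did not. The call was higher in db/db for 1 of the 9, Scd4, and lower for 0, while over all genes tested 1.29% were called higher, 1.72% lower and 3.01% in either direction. At an unadjusted limma p under 0.05, 3 of the 9 were higher, Scd4, Scd2 and Elovl1, and 0 lower, beside 7.33% higher and 11.9% lower over all genes tested. All 5 db/db values lay above all db/+ values for 1 of the 9 as well, beside 2.23% of all genes tested, and all below for 0, beside 4.18%. The median log2 fold change of the 9 was 0.08, and that of all genes was -0.03. Nothing is read from these counts, since the genes were chosen with this comparison known.

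**Figure D1:**
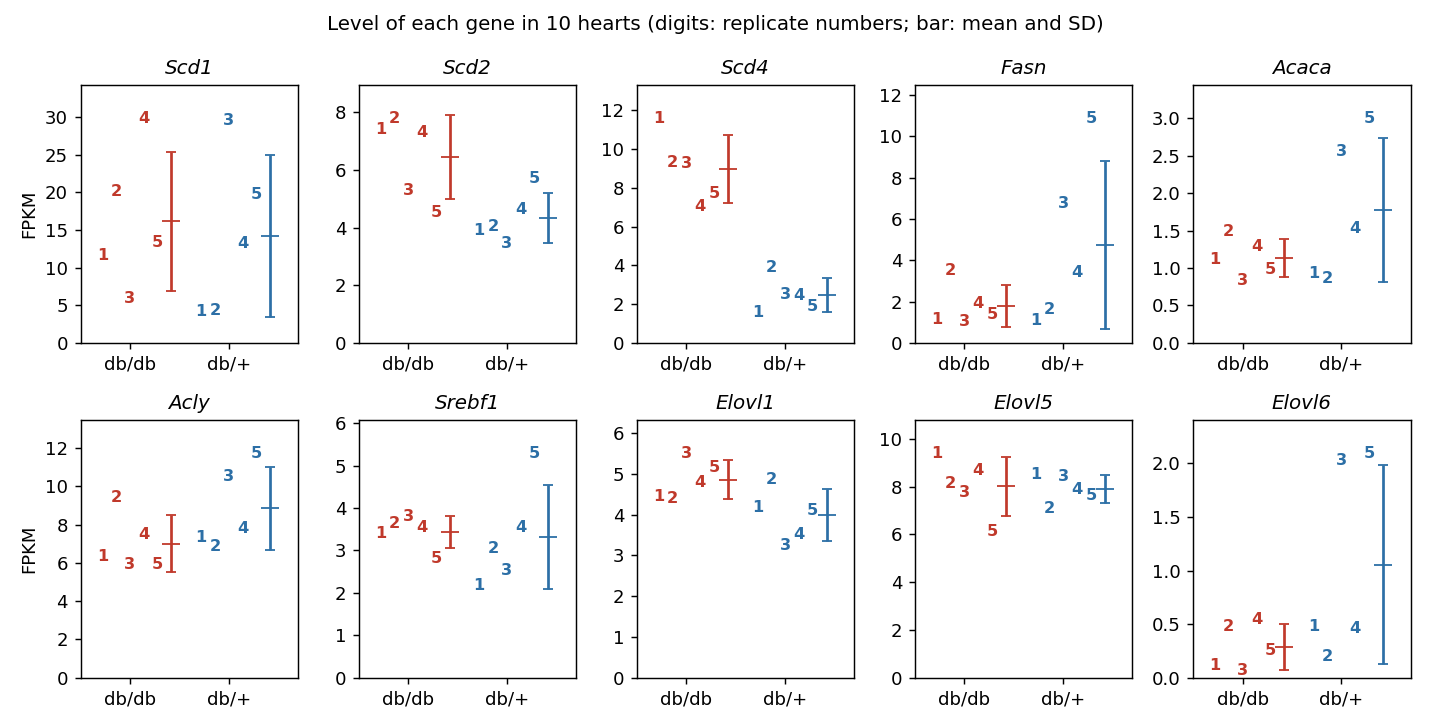
Level of each of the 10 genes in FPKM (vertical axes, each from 0) in the 5 db/db hearts on the left and the 5 db/+ hearts on the right of each panel, with the replicate number as the symbol and bars for mean and SD. Scd4 is the panel in which the genotypes do not overlap, and db/+ hearts 3 and 5 are the 2 highest hearts for Fasn, Acaca, Acly and Elovl6.

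The depth of the libraries is unknown because the table holds no counts. FPKM summed to between 332599 and 340468 per db/db library and between 307869 and 332394 per db/+ library. Mitochondrial transcripts took 42.0% to 44.7% of the FPKM in db/db libraries and 33.5% to 43.3% in db/+ libraries. Cardiomyocyte markers were high in every library, as the tissue label states: all 8 were in the table, and their summed level was 8675 to 9714 FPKM in db/db hearts and 9613 to 11813 FPKM in db/+ hearts, with Myl2 called lower. All 8 had negative log2 fold changes, and 3 of them, Myh6, Myl2 and Atp2a2, had all db/db values below all db/+ values and an unadjusted limma p under 0.05. Of the 10344 genes tested, 5954 had negative log2 fold changes, 4.18% had all db/db values below, and 11.9% were lower at that unadjusted p. Of 4 hepatocyte markers Alb alone could be examined, and it reached 3.22 FPKM in db/db hearts and 4.89 FPKM in db/+ hearts but was listed at 0 in 6 of the 10 hearts. Of 6 endothelial, 6 fibroblast, 6 macrophage and 5 smooth muscle and pericyte markers tested, limma called 0. At an unadjusted p under 0.05, 3 fibroblast and 1 endothelial markers were higher and 1 endothelial marker lower, where 7.33% of all genes were higher and 11.9% lower. Of 3 blood cell genes 0 were called, and 0 passed without adjustment, although all 4 blood cell genes of the list together summed to 127 to 2323 FPKM in db/db hearts and 130 to 897 FPKM in db/+ hearts. Of the Schwann cell markers 1 was tested and not called. In bulk tissue, fewer cells of a type and less RNA per cell cannot be told apart.

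The desaturase genes lie side by side on chromosome 19. In the positions deposited by the authors, Scd2 (ENSMUSG00000025203.5) spans chr19:44293676-44306864 on the plus strand. Scd4 (ENSMUSG00000050195.8) follows at chr19:44333092-44346743 on the plus strand, 26227 bp further on. Scd1 (ENSMUSG00000037071.2) lies at chr19:44394451-44407709 on the minus strand, 47707 bp beyond Scd4. Scd3, the remaining mouse desaturase of this cluster, had no row to analyse here. The genes are close copies of each other and can share reads, so each level is uncertain to the extent that the authors' counting could have split them.

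Scd4, the heart isoform, had 11.6, 9.29, 9.25, 7.05 and 7.71 FPKM in db/db hearts 1 to 5, and 1.57, 3.91, 2.50, 2.46 and 1.89 FPKM in db/+ hearts 1 to 5. The lowest db/db heart was 4 and the highest db/+ heart was 2, and the gap between them was wider than the SD of either genotype. The log2 fold change was 1.54 (SE 0.17), the 6th largest of the 10344 genes tested. By mean level Scd4 was the second of the 10 genes in db/db hearts, behind Scd1, and the eighth in db/+ hearts, ahead of Acaca and Elovl6. It stayed called in every alternative that was fitted.

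Scd1, the main desaturase of liver and fat, had 11.6, 20.1, 5.86, 29.8 and 13.3 FPKM in db/db hearts 1 to 5, and 4.13, 4.32, 29.5, 13.2 and 19.8 FPKM in db/+ hearts 1 to 5. It was the most abundant of the 10 genes in both genotypes and varied widely within each, with a highest value 5.08 times the lowest in db/db hearts and 7.15 times in db/+ hearts. Its log2 fold change was 0.34 (SE 0.53), smaller than its own error. Scd2, the isoform best known from brain, had 7.41, 7.78, 5.30, 7.29 and 4.52 FPKM in db/db hearts, against 3.90, 4.04, 3.45, 4.62 and 5.71 FPKM in db/+ hearts. Its values were mostly higher in db/db hearts, but db/db heart 5 lay below db/+ hearts 4 and 5. Its log2 fold change was 0.47 (SE 0.15), not called with all hearts and called when db/db heart 5 was left out.

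**Figure D2:**
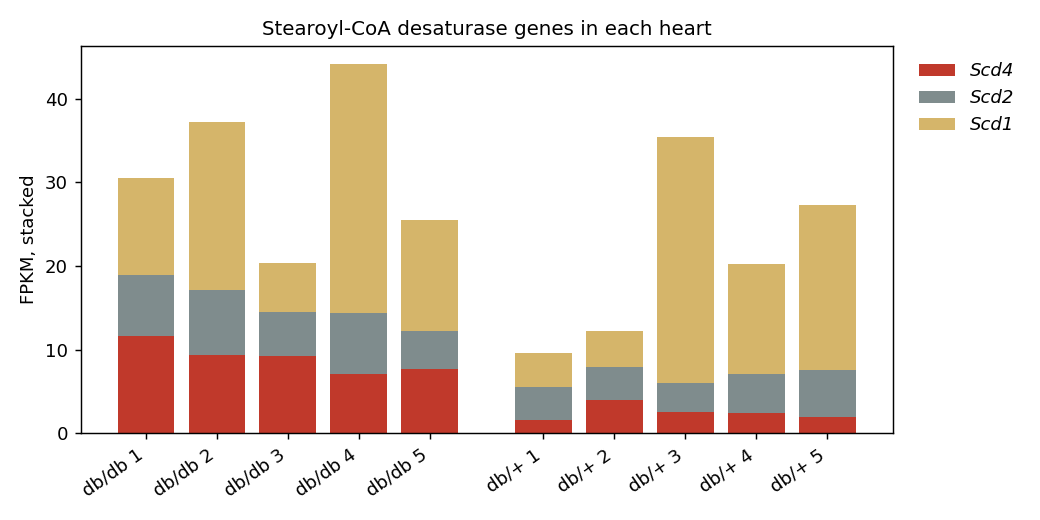
Stacked FPKM of Scd4, Scd2 and Scd1 in each heart (vertical axis from 0), db/db hearts on the left and db/+ hearts on the right. The Scd4 segment runs from 7.05 to 11.6 FPKM in db/db hearts and from 1.57 to 3.91 FPKM in db/+ hearts, while the Scd1 segment sets most of the spread in total height within each genotype.

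Set against its relatives within each heart, Scd4 made up 37.9%, 25.0%, 45.3%, 15.97% and 30.2% of the summed FPKM of the 3 genes in db/db hearts 1 to 5. In db/+ hearts 1 to 5 it made up 16.4%, 31.9%, 7.04%, 12.1% and 6.89%. The mean share was 30.9% ± 11.3 in db/db hearts and 14.9% ± 10.3 in db/+ hearts (SD, n = 5 each). The shares overlapped: db/db heart 4, which had the highest Scd1 of all hearts, lay below db/+ heart 2, which had low Scd1. The Scd1 share was 48.1% ± 15.1 in db/db hearts and 59.8% ± 20.1 in db/+ hearts, and the Scd2 share 21.1% ± 4.06 in db/db hearts and 25.4% ± 11.8 in db/+ hearts.

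On the log2(FPKM + 1) scale, the level of Scd4 minus that of Scd2 was 0.58, 0.23, 0.70, -0.04 and 0.66 in db/db hearts 1 to 5. In db/+ hearts 1 to 5 it was -0.93, -0.04, -0.35, -0.70 and -1.22. The genotypes met only at db/db heart 4 and db/+ heart 2, which were nearly equal. The level of Scd4 minus that of Scd1 overlapped broadly, at -0.62 ± 0.97 in db/db hearts and -1.82 ± 1.26 in db/+ hearts. The summed level of the 3 genes was 31.6 ± 9.38 FPKM in db/db hearts and 21.0 ± 10.7 FPKM in db/+ hearts, with overlap.

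The genes whose levels over the 10 hearts were most like Scd4, by Pearson's r on log2(FPKM + 1), were Mapre1 (r = 0.97), Tmem38b (r = 0.96), Vsig4, Acot2 and Zfp91 (r = 0.95 each). These r values carry the difference between genotypes, because all 5 genes were higher in db/db hearts. Acot2, a mitochondrial acyl-CoA thioesterase, averaged 63.8 ± 1.28 FPKM in db/db hearts and 32.3 ± 4.85 FPKM in db/+ hearts. With the genotype means taken out, the 5 most alike were Gm21970 (r = 0.90), Ankrd1 (r = 0.88), Rab29, Gm20604 and Dynlt1f (r = 0.87 each), and no gene was on both lists. Both lists hold the highest r among the 10344 genes tested, over only 10 hearts. No chance level for such r values was computed, so no relation to Scd4 is read from them.

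Acly, which supplies acetyl-CoA, had 6.32, 9.41, 5.90, 7.51 and 5.92 FPKM in db/db hearts 1 to 5, and 7.31, 6.88, 10.5, 7.78 and 11.7 FPKM in db/+ hearts 1 to 5. Its log2 fold change was -0.29 (SE 0.16). Acaca, which makes malonyl-CoA, was low throughout, at 1.11, 1.48, 0.837, 1.29 and 0.980 FPKM in db/db hearts and 0.927, 0.862, 2.55, 1.53 and 3.00 FPKM in db/+ hearts. Both genes peaked in db/+ hearts 5 and 3, and their other db/+ hearts lay within the db/db range or close to it. For Acaca the log2 fold change was -0.31 (SE 0.20).

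Fasn, the synthase itself, had 1.16, 3.51, 1.05, 1.91 and 1.39 FPKM in db/db hearts 1 to 5, and 1.09, 1.60, 6.73, 3.42 and 10.9 FPKM in db/+ hearts 1 to 5. The highest db/+ heart was 9.96 times the lowest, against 3.35 times in db/db hearts. Its log2 fold change of -0.80 (SE 0.43) compares with -0.11 (SE 0.29) without db/+ hearts 3 and 5. Elovl6, which lengthens palmitate to stearate, was the lowest of the 10 genes, with 0.112, 0.477, 0.0658, 0.542 and 0.251 FPKM in db/db hearts and 0.477, 0.198, 2.03, 0.460 and 2.09 FPKM in db/+ hearts. It passed 1 FPKM in db/+ hearts 3 and 5 alone. In the fit without a filter on low values its log2 fold change was -0.57 (SE 0.26), not called.

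For Acly, Fasn and Elovl6, which were high in the same hearts, bases upstream of their RefSeq start sites are shown (build GRCm38.p6, each 5′ to 3′ on the gene's own strand, lower case with motif matches in capitals). Acaca, whose RefSeq start lies 65766 bp inside the deposited gene, is not shown. Whether these sequences bear on the levels was not tested. The stretches are chr11:100528001-100528200 on the minus strand for Acly, chr11:120824548-120824747 on the minus strand for Fasn and chr3:129532186-129532354 on the plus strand for Elovl6.
Acly: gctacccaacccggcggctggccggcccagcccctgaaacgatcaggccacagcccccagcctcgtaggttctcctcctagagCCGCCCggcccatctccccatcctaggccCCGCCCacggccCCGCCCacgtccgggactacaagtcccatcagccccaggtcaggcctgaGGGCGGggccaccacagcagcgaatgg
Fasn: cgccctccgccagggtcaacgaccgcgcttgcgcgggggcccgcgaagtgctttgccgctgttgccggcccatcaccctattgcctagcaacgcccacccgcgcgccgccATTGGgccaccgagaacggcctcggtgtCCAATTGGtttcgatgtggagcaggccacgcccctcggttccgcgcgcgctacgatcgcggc
Elovl6: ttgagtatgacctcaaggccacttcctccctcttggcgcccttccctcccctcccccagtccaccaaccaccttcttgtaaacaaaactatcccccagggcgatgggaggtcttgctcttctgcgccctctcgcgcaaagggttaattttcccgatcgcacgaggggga
In Acly the capitals mark 4 GC boxes (GGGCGG or its complement CCGCCC), and in Fasn they mark 3 CCAAT boxes (CCAAT or its complement ATTGG), of which 2 overlap each other. The Elovl6 stretch, which ends 32 bases before the start, held none of the motifs searched. Of 32851 RefSeq promoters of 250 bases before to 50 bases after the start, 35.7% held a GC box and 37.4% a CCAAT box on either strand, so either match is common. The other motifs searched on both strands were the E-box CACGTG, held by 7.15% of promoters, and the sterol response element TCACNCCAC, held by 1.24%. Each motif was searched separately, so matches can overlap. Of the 10 genes, 8 had a promoter in the RefSeq table, and among their 11 promoters CACGTG occurred before Elovl5 and TCACNCCAC in none. Only these strings within these windows were searched, so variant or more distant sites were not examined.

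Srebf1, the regulator of the pathway, had 3.40, 3.64, 3.80, 3.55 and 2.80 FPKM in db/db hearts 1 to 5, and 2.18, 3.05, 2.52, 3.53 and 5.29 FPKM in db/+ hearts 1 to 5. Its log2 fold change was 0.08 (SE 0.16), with the db/db values inside the db/+ range. Elovl5, which lengthens polyunsaturated chains, was the steadiest gene in db/+ hearts, at 9.40, 8.15, 7.74, 8.68 and 6.11 FPKM in db/db hearts and 8.51, 7.10, 8.42, 7.89 and 7.64 FPKM in db/+ hearts. Its log2 fold change was 0.01 (SE 0.10).

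Elovl1, which lengthens saturated and monounsaturated very long chains, had 4.44, 4.39, 5.50, 4.79 and 5.15 FPKM in db/db hearts 1 to 5, and 4.18, 4.87, 3.24, 3.50 and 4.10 FPKM in db/+ hearts 1 to 5. Only db/+ heart 2 lay among the db/db values, the other 4 db/+ hearts below all of them. Its difference, 0.24 on the log2 scale (SE 0.09), was not called. The 3 elongases thus differed in their pattern: Elovl6 was highest in db/+ hearts 3 and 5, Elovl1 was lowest in db/+ heart 3, and Elovl5 varied little in db/+ hearts, though 1.54 times in db/db hearts.

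Adipocyte transcripts differed widely between hearts and moved with several of these genes. All 10 adipocyte markers of the list were in the table, with a summed level of 240 to 326 FPKM in db/db hearts and 222 to 522 FPKM in db/+ hearts. Of the 9 tested, Cfd was called lower, at 5.46 ± 4.91 FPKM in db/db hearts and 52.3 ± 42.3 FPKM in db/+ hearts, with overlap. At an unadjusted limma p under 0.05, 0 of the 9 were higher and 2, Retn and Cfd, lower, beside 7.33% and 11.9% of all genes tested. Adipoq, the adipocyte hormone gene, had 3.77, 10.7, 1.92, 16.3 and 4.40 FPKM in db/db hearts 1 to 5, and 5.27, 2.42, 32.6, 14.1 and 29.6 FPKM in db/+ hearts 1 to 5. Adrb3 was listed at 0 in db/db heart 3. Brown adipocyte markers summed to 52.2 to 76.9 FPKM in db/db hearts and 37.7 to 179 FPKM in db/+ hearts, with Ucp1 listed at 0 in db/+ heart 2 and 0 of the 4 called by limma or at an unadjusted p under 0.05. Fabp4, Plin4, Lipe and Cidea of these lists are also made by heart muscle or its vessels.

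The mean log2(FPKM + 1) of the 10 adipocyte markers was 2.70, 3.36, 2.43, 3.71 and 2.74 in db/db hearts 1 to 5, and 2.98, 2.63, 4.49, 3.77 and 4.66 in db/+ hearts 1 to 5. It was compared with each gene over the 10 hearts by Pearson's r and Spearman's rho with two-sided permutation tests, adjusted over the 10 relations by Benjamini-Hochberg. Hearts were permuted across both genotypes, and the marker level was lower on average in db/db hearts. The p-values can therefore carry part of the genotype difference, and they are given as description since the genes were chosen with earlier results known. Acaca followed the marker level most closely, with r = 0.95 (permutation p = 0.00038, adjusted 0.0019) and rho = 0.94 (p = 0.0002, adjusted 0.002). Elovl6 had r = 0.94 (permutation p = 0.0001, adjusted 0.001) and rho = 0.92 (p = 0.0004, adjusted 0.002). Fasn had r = 0.93 (permutation p = 0.00072, adjusted 0.0023) and rho = 0.85 (p = 0.0026, adjusted 0.0065). These 3 genes and Acly were the closest of the 10.

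Acly had r = 0.91 (permutation p = 0.00092, adjusted 0.0023) and rho = 0.92 (p = 0.00062, adjusted 0.00207). Scd1 had r = 0.73 (permutation p = 0.0141, adjusted 0.0281) and rho = 0.66 (p = 0.0436, adjusted 0.0727), so its rank relation did not pass after adjustment. Elovl1 ran the other way, with r = -0.74 (permutation p = 0.0196, adjusted 0.0327) and rho = -0.83 (p = 0.00482, adjusted 0.00964). Without the 2 hearts farthest from the median marker level, db/+ 5 and db/+ 3, r was 0.88 for Acaca, 0.87 for Elovl6, 0.77 for Fasn, 0.73 for Acly, 0.68 for Scd1 and -0.67 for Elovl1. Each of these 6 relations thus kept its sign without those hearts, at a smaller size.

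The other 4 relations did not pass: r was -0.57 for Scd4 (permutation p = 0.0885, adjusted 0.126; rho = -0.55, p = 0.103, adjusted 0.147) and 0.32 for Srebf1 (permutation p = 0.381, adjusted 0.477; rho = 0.12, p = 0.759, adjusted 0.844). For Elovl5 r was 0.20 (permutation p = 0.601, adjusted 0.667; rho = 0.14, p = 0.708, adjusted 0.844) and for Scd2 -0.07 (permutation p = 0.853, adjusted 0.853; rho = -0.03, p = 0.945, adjusted 0.945). Without db/+ 5 and db/+ 3 these were -0.29 for Scd4, 0.21 for Srebf1, 0.30 for Elovl5 and 0.30 for Scd2, so the sign of Scd2 was not stable. With the genotype means taken out, r over the 10 hearts was 0.95 for Scd1, against 0.73 with them, and 0.94 for Acaca, 0.92 for Elovl6, 0.90 for Fasn and 0.88 for Acly. Of 10335 genes tested other than the markers, 0.184% had r of at least 0.9 with the marker level, and Acaca, Fasn and Acly were 3 of these 19 genes. An r of at least 0.7 was found for 2.94% and one of at most -0.7 for 1.42%.

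**Figure D3:**
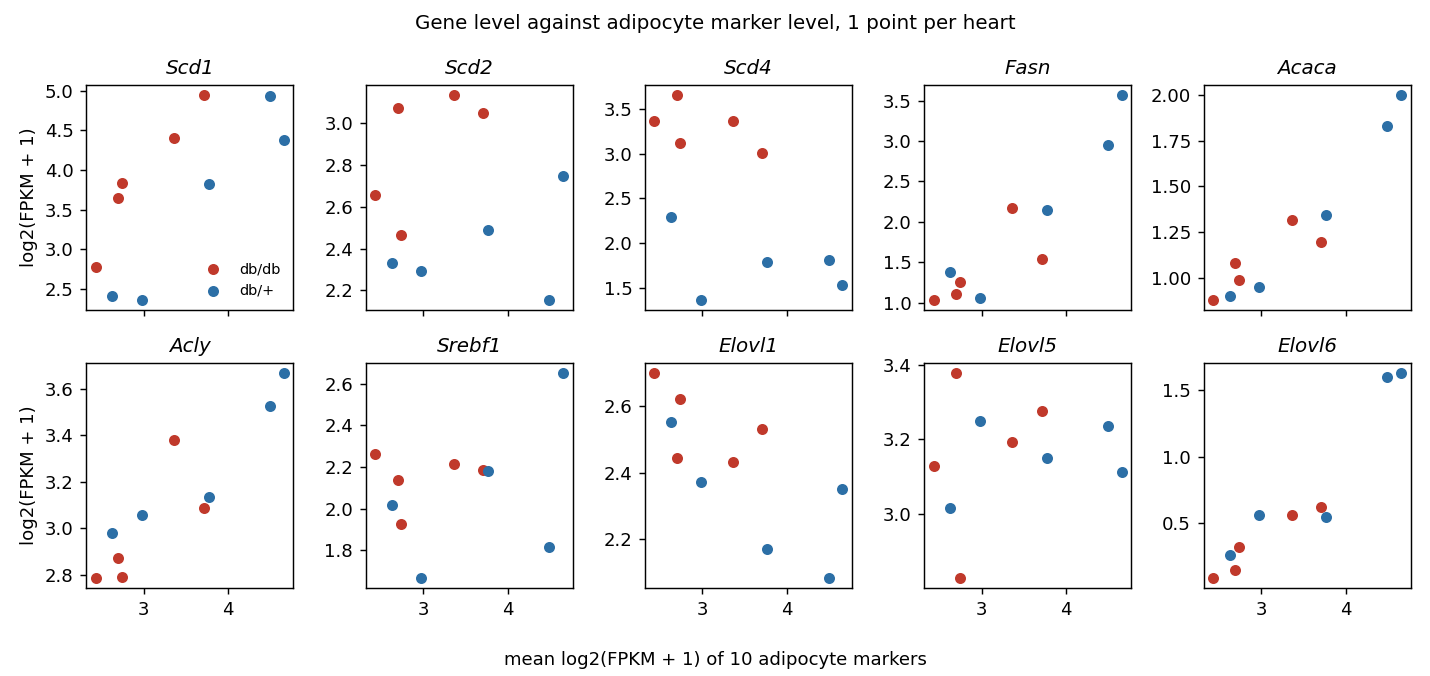
Level of each gene as log2(FPKM + 1) (vertical axes, which do not start at 0) against the mean log2(FPKM + 1) of 10 adipocyte markers (horizontal axis), 1 point per heart, db/db in red and db/+ in blue. Acaca, Fasn, Acly and Elovl6 follow 1 line over both genotypes, Scd1 follows a separate line in each genotype, with the db/db hearts above the db/+ hearts at a like marker level, and Scd4 lies higher in each db/db heart than in every db/+ heart.

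When the adipocyte marker level was added to the fit as a covariate, the log2 fold changes of the synthesis genes came close to 0, at -0.08 (SE 0.22) for Fasn, 0.03 (SE 0.10) for Acaca and -0.05 (SE 0.10) for Acly. That of Scd1 was 1.28 (SE 0.19) in this fit, against 0.34 without the covariate, and Scd1 was then called higher in db/db. That of Scd4 was 1.42 (SE 0.18), close to its value without the covariate. Without db/+ hearts 3 and 5, an alternative chosen after seeing the data, the value was 1.06 (SE 0.48) for Scd1, not called, and 1.48 (SE 0.20) for Scd4, called. It was -0.07 (SE 0.14) for Acly and 0.03 (SE 0.13) for Acaca. The marker level was itself higher on average in db/+ hearts, at 2.99 ± 0.53 in db/db hearts and 3.71 ± 0.90 in db/+ hearts. The markers did not contribute equally to this difference, with log2 fold changes from -2.89 for Cfd to 0.08 for Lipe. The covariate and the genotype thus cannot be fully told apart.

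**Figure D4:**
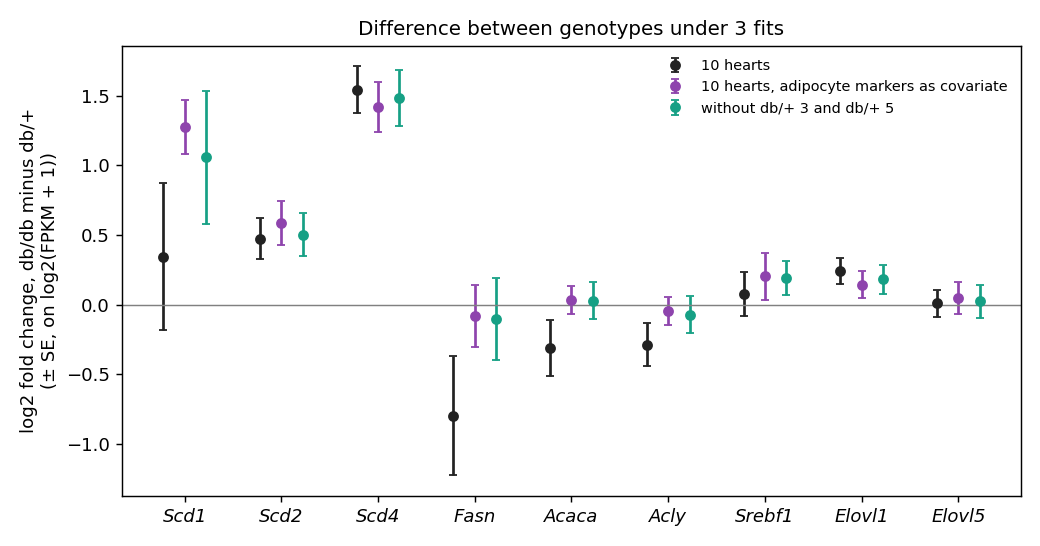
Log2 fold change of each tested gene, db/db minus db/+ (vertical axis, points with bars for SE), with all 10 hearts in black, with the adipocyte marker level as a covariate in purple and without db/+ hearts 3 and 5 in green. Scd4 stays between 1.42 and 1.54, Scd1 is higher in purple and green than in black, and Fasn, Acaca and Acly lie near 0 in purple and green.

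Around the 10 genes, 7 lists with 67 other genes of the pathway were examined, of which 60 were in the table and 59 were tested. Of these, 3 were called higher and 1 lower in db/db hearts, beside 1.29% and 1.72% of all genes, with a median log2 fold change of -0.05. Nothing is read from these counts or those of the single lists, since the lists were chosen with earlier results known. The adjusted p-values given here are from the limma fit over all 10344 genes and are given as description. Me1, the malic enzyme that supplies NADPH for synthesis, had 43.3, 42.6, 43.0, 42.8 and 42.4 FPKM in db/db hearts 1 to 5, against 33.0, 32.7, 36.8, 34.1 and 30.4 FPKM in db/+ hearts 1 to 5. The groups did not overlap, and the db/db values were nearly equal to each other. Me1 rose by a log2 fold change of 0.35 (SE 0.06, limma adjusted p = 0.00941), the 1 call higher among 10 genes tested for the supply of acetyl-CoA, malonyl-CoA and NADPH, of which 0 were called lower. At an unadjusted limma p under 0.05, 2 of those 10 were higher and 3 lower, beside 7.33% and 11.9% of all genes, which also stand beside the unadjusted counts of the lists that follow.

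Among 9 tested targets of LXR and SREBP1, limma called 2 higher and 0 lower, and at an unadjusted p under 0.05 3 were higher and 0 lower. Lpcat3, which places polyunsaturated chains in phospholipids, averaged 11.5 ± 1.35 FPKM in db/db hearts and 8.06 ± 1.18 FPKM in db/+ hearts without overlap (log2 fold change 0.47, SE 0.11, limma adjusted p = 0.0388). Mylip, which marks the LDL receptor for breakdown, averaged 12.98 ± 2.06 FPKM in db/db hearts and 8.96 ± 1.09 FPKM in db/+ hearts with overlap (log2 fold change 0.48, SE 0.11, limma adjusted p = 0.0466). With the adipocyte covariate neither was called, at log2 fold changes of 0.45 for Lpcat3 and 0.50 for Mylip that were about as large as without it. Neither was called in 8 of the 10 fits that left out 1 heart, those without db/db heart 5 and without db/+ heart 1 being the exceptions.

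Of 7 tested genes around the processing of SREBP, limma called 0 higher and 1 lower, and at an unadjusted p under 0.05 0 were higher and 2 lower. Trib1, a pseudokinase that in mouse liver restrains lipogenesis, had 1.91, 2.08, 1.69, 2.05 and 1.95 FPKM in db/db hearts 1 to 5, against 2.91, 2.46, 2.84, 3.37 and 3.33 FPKM in db/+ hearts 1 to 5. All db/db values were the lower ones, with a log2 fold change of -0.44 (SE 0.08, limma adjusted p = 0.0157). With the adipocyte covariate it was -0.36 (limma adjusted p = 0.0624), not called. Insig1, which holds SREBP in the endoplasmic reticulum, had a log2 fold change of -0.50 (SE 0.17, limma adjusted p = 0.145), not called.

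The other 4 lists held no call by limma, and at an unadjusted p under 0.05 2 genes of these lists, Cyb5r3 and Fads2, were higher and 5 lower. Of 14 lipogenic regulators, the nearest to the threshold were Nr1h2, which encodes LXR-beta (log2 fold change -0.32, SE 0.08, limma adjusted p = 0.0534, all db/db values below all db/+ values), and Mlxipl, which encodes the carbohydrate sensor ChREBP (log2 fold change -0.51, SE 0.13, limma adjusted p = 0.0587). Thrsp, a lipogenic gene of fat and liver, had r = 0.93 with the adipocyte marker level. Of 6 tested genes for other desaturases and their electron donors, the nearest were Cyb5r3 (log2 fold change 0.23, limma adjusted p = 0.231) and Fads2 (0.28, limma adjusted p = 0.254). Among 7 tested genes for other elongation steps the nearest was Hsd17b12 (-0.26, limma adjusted p = 0.229), and of 6 for mitochondrial fatty acid synthesis it was Mecr (-0.23, limma adjusted p = 0.211).

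m6A is the most common internal mark of messenger RNA and is found mostly near stop codons and in 3′ untranslated regions. The authors called peaks in each heart separately, and the fold enrichment of pulled-down over input RNA given here is theirs. Of the 10 genes, 3 had a peak in at least 1 heart, which were Elovl1, Acaca and Scd1. Scd2, Scd4, Fasn, Acly, Srebf1, Elovl5 and Elovl6 were in none of the 10 lists. A peak in at least 1 heart was listed for 72.7% of the genes tested for expression, for 63.7% of the 9768 genes with a mean of 0.5 to 16 FPKM, close to the range of the 10 genes, and for 61.7% of the 60 other pathway genes. A gene with low reads can lack a peak for want of depth, and absence of m6A was not tested.

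Elovl1 carried the one region found in most hearts, chr4:118432079-118432656 on the plus strand, in the 3′ untranslated region by the lists' annotation and reaching into the coding part in db/+ heart 5. It was present in 4 db/db and 4 db/+ hearts and absent from the lists of db/db heart 5 and db/+ heart 4. The highest fold in the region was 5.66, 3.70, 4.43 and 3.56 in db/db hearts 1 to 4, against 4.22, 4.11, 3.47 and 5.86 in db/+ hearts 1, 2, 3 and 5. The folds of the genotypes overlapped throughout.

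Acaca had 1 region at the end of its 3′ untranslated region, chr11:84401435-84401651 on the plus strand, in 1 db/db and 2 db/+ hearts. Its highest fold was 9.97 in db/db heart 2, against 4.86 in db/+ heart 3 and 4.48 in db/+ heart 5. The db/+ hearts with the peak were the 2 with the highest Acaca level, and db/db heart 2 ranked 4th of 10. Whether the level decides the listing of the peak was not tested.

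Scd1 had 4 regions in its 3′ untranslated region on the minus strand, and 1 of them recurred. That region, chr19:44397018-44397286, was listed in 0 db/db and 3 db/+ hearts, with a fold of 2.37 in db/+ heart 3, 3.15 in db/+ heart 4 and 3.87 in db/+ heart 5. Fisher's exact test gave p = 0.167 (two-sided, adjusted p = 1 over 15747 regions), and 2.74% of all regions were found in at least 3 more db/+ than db/db hearts. For the level of Scd1, db/+ hearts 3, 5 and 4 ranked 2nd, 4th and 6th of the 10 hearts, while db/db hearts 4 and 2 ranked 1st and 3rd and had no peak there. Whether the level decides the listing of this peak was not tested. The other 3 regions were each listed in 1 heart, in db/db heart 2 at chr19:44394481-44394570 with a fold of 2.99, and in db/+ heart 5 at chr19:44395167-44395257 with a fold of 2.29 and at chr19:44397644-44397764 with a fold of 2.99.

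**Figure D5:**
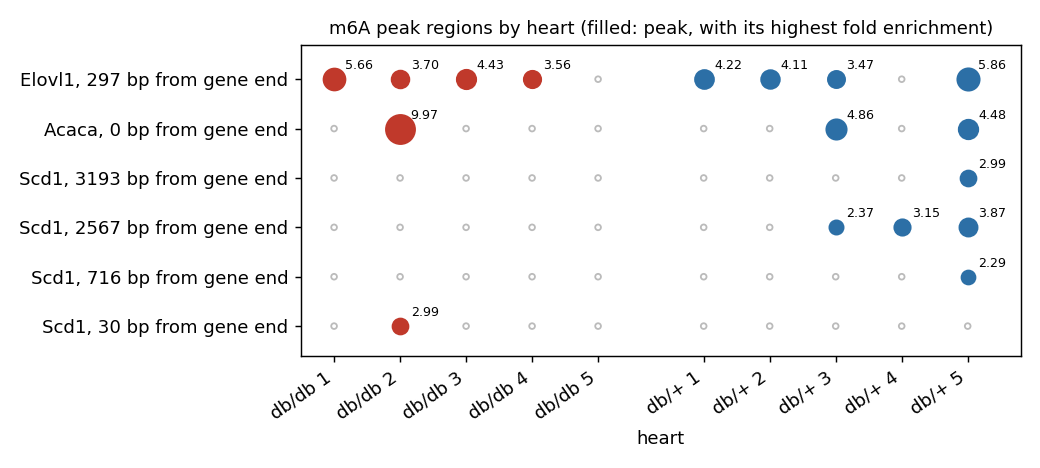
Peak regions of Elovl1, Acaca and Scd1 (rows, named by their distance in bp from the 3′ end of the gene) in each heart (columns, db/db left of db/+), with a filled circle where a peak was listed, sized and labelled by its highest fold enrichment, and a small open circle where none was. The Elovl1 region is filled in 8 hearts and the recurring Scd1 region in db/+ hearts 3, 4 and 5 only.

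Per heart, the number of the 10 genes with a peak was 1, 3, 1, 1 and 0 in db/db hearts 1 to 5 and 1, 1, 3, 1 and 3 in db/+ hearts 1 to 5. The hearts with 3 such genes were db/db 2, db/+ 3 and db/+ 5. The whole lists held 8468 peaks, the fewest, in db/db heart 5, which had none on these genes, and 20030, the most, in db/+ heart 5, which had the most on them. That heart had 11 distinct peaks on these genes, of which 6 lie in the Elovl1 region and 2 in the Acaca region, listed for several transcripts of each gene. Between these ends the counts did not follow list length: db/db heart 4, with 15617 peaks in its list, had 1 gene and db/db heart 2, with 14459, had 3. Over all 15747 regions, Fisher's exact test called 0.00% at an adjusted p under 0.05, and 106 regions, 0.673%, had an unadjusted p under 0.05. With 5 against 5 hearts that test cannot go below 0.00794, and the smallest adjusted p was 1.

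Of the 60 other pathway genes, 37 had a peak in at least 1 heart. Acacb, which makes the malonyl-CoA that limits fatty acid entry into mitochondria, had one in all 10 hearts, and so did Nnt, Ndufab1, Cyb5r3, Tecr, Rxra, Usf2 and Pnpla2. A peak in at least 3 more db/+ than db/db hearts was listed for 3 of the 37, beside 3.18% of the 7517 tested genes with a peak. These were Trib1 with 1 db/db and 5 db/+ hearts, Insig1 with 1 db/db and 4 db/+ hearts, and Idh1 with 0 db/db and 3 db/+ hearts. The reverse held for 1 of the 37, the cholesterol exporter Abca1 with 5 db/db and 2 db/+ hearts, beside 1.25%. Fisher's exact test gave p = 0.0476 for Trib1, 0.206 for Insig1, 0.167 for Idh1 and 0.167 for Abca1 (two-sided, adjusted p = 1 for each over the 7517 genes). RNA levels of these genes differed in the same direction as their peaks. Log2 fold changes were -0.44 for Trib1, called lower, and -0.50 for Insig1, -0.17 for Idh1 and 0.16 for Abca1, not called. Whether the level decides the listing of these peaks was not tested. Me1, which was called higher, had a peak in 3 db/db and 2 db/+ hearts.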

How the data were processed

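Input RNA and m6A-immunoprecipitated RNA of 10 hearts were sequenced. Per the labels' protocols, poly(A) RNA was purified after Trizol extraction and libraries were made with a stranded mRNA kit. HISAT2 2.1.0, Trimmomatic 0.32, FastQC 0.11.7 and, as genome build, mm9 appear without roles in the submitters' processing notes. Gene starts in the deposited table, such as those of Fasn and Acly, equal RefSeq starts of GRCm38.p6, so deposited positions were printed unconverted, counted from 1. What computed FPKM and called peaks is not given in the sources used here.

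FPKM deposited by the authors cover 11856 protein-coding genes. In it the larger genotype mean was at least 0.500 FPKM, so low genes had been removed, and 1 emptied line was skipped. FPKM showed no steps of whole reads, with at most 4.40% of 500 low genes at one ratio (within 1%) between libraries, so no count test was run. The peak lists deposited by the authors give, per heart, each peak's position, fold enrichment (a ratio, 1.05 to 241) and p-value (at most 0.00513). Of 146953 lines, 5032 repeated a position in a heart and were left out of the peak totals of the whole lists. For genes and regions, a repeated line was removed only if it also named the same gene.

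limma 3.58.1 in R 4.3.3 (lmFit, eBayes with trend) was run on log2(FPKM + 1) for each gene whose mean reached 1 FPKM, as db/db minus db/+. Log2 values are thus computed here from the deposited FPKM. Regions are peaks merged over hearts at an overlap of at least 1 bp. Correlations used 100000 permutations in scipy 1.17.1 under Python 3.11.15. The labels do not say that the hearts of a group were independent beyond their numbers, so p-values measure the spread between these samples. Replicate numbers did not pair the samples.

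The 10 genes and all lists were chosen with earlier results of these data known. Genes named beyond the 10 are those called in the lists, up to 2 with the smallest p in lists without a call, the 5 most like Scd4 on each of 2 scales, and Insig1, Thrsp and the genes named for their peaks, which were chosen after their values were seen. Alternatives covered the pseudocount (0.1, 0.5), the filter (none, 2 FPKM), scaling, trend, an adipocyte covariate, a replicate block, each heart left out, and peak thresholds (fold 2, p 1e-05, merged peaks, 50% overlap).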

Additional observations from a re-analysis of the deposited data

How the results depend on the processing

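Over all alternatives other than leaving out 1 heart, 202 of 235 values were counted as kept. When 1 heart was left out, 206 of 260 were. Tested values were kept if their direction and side of the threshold held, and counts of genes if they stayed within a set factor. The Scd4 share was kept if it moved by less than the larger SD of a genotype. Differences in hearts with a peak region were kept unless their sign reversed. The Elovl1 region, equal in both genotypes, could therefore not fail. Merging overlapping peaks of a heart leaves the number of genes with a peak unchanged, so that alternative could not fail for it either. The 311 genes called (133 higher, 178 lower) were 128 with the adipocyte covariate (72 higher, 56 lower), 72 with the replicate block (30 higher, 42 lower) and 128 without db/+ hearts 3 and 5 (66 higher, 62 lower). Genes called lower were 101 with library medians set equal and 113 with mitochondrial genes removed, and the share of calls that were higher was 42.8% with the authors' scaling, 60.1% with medians equal, 55.97% with quantile normalization and 57.8% with mitochondrial genes removed. No scaling moved the median of all genes by over 0.1.

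Of the 10 genes, 1 was called higher, and 2 with the adipocyte covariate. The other pathway genes called higher were 3, against 1 with the covariate, 0 with the replicate block and 1 without db/+ hearts 3 and 5. Those called lower were 1, against 2 at a mean of at least 2 FPKM and 0 with the covariate, with the block and without those hearts. The log2 fold change of Acaca turned to 0.032 with the covariate and 0.028 without db/+ hearts 3 and 5. Distinct peaks on the 10 genes per heart, db/db minus db/+, were -1.8, against -1 with overlapping peaks of a heart merged and 0.4 at a p-value of at most 1e-05. The cause was not tested.

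Leaving out 1 heart gave 112 to 315 calls, 54 to 145 higher and 57 to 177 lower. The 10 genes then held 1 to 2 called higher and the other pathway genes 1 to 3 higher and 1 to 2 lower. The Scd4 share differed by 12.4 to 20.3 percentage points. Genes with a peak differed by -1.05 to -0.3 and their peaks by -2.75 to -0.25, with a lowest exact permutation p of 0.278 for each. Hearts with the region differed by -2 to 0 for Acaca, -1 to 1 for Elovl1 and -3 to -2 for Scd1. The log2 fold change was -0.021 to 0.23 for Srebf1 and -0.046 to 0.091 for Elovl5. The replicate numbers do not pair the hearts: same-numbered hearts correlated at -0.11 to 0.03 over 5 pairs, and 0 of 10 hearts correlated best with its own number. With the replicate block Me1, Trib1, Mylip and Lpcat3 lost their calls and Scd4 kept its own. Depth is unknown, so how far it limits the low genes cannot be given.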
